A study of Mus musculus with 12 samples.

Results

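Olfactory bulb neuron markers were followed here in RNA from the mouse cortex. They are 10 genes chosen by symbol, 5 of which mark mitral and tufted cells (Cdhr1, Doc2g, Tbx21, Eomes and Nmb) and 5 of which mark bulb interneurons (Th, Trh, Shisa3, Scgn and Sp8). All 10 were found among the 24062 gene symbols counted, and all 10 passed the filter on low counts that left 15440 genes. The members were picked because their levels differed between these libraries, so their levels and fold changes are given as a description with no test.

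The study compared 4 groups of 9-month-old mice, with 3 libraries per group and 1 library per mouse. WT mice carried neither altered gene. PS19 mice carried human MAPT with the P301S mutation, a tau transgene driven by the Prnp promoter, and had both copies of Tia1, which encodes an RNA-binding protein of stress granules. Tia1+/- mice had 1 null copy of Tia1 and no transgene, and P301S Tia1+/- mice had both alterations. By the methods, a B6;C3 transgenic line was crossed with a Tia1 null line on C57BL/6J, and their offspring were bred with each other to give littermates for the experiments with the transgene. The tau transgene is expressed where the Prnp promoter is active, and the Tia1 allele is altered in every cell of the body, bulb included. Libraries are named below by group and replicate number, so WT 1 is replicate 1 of WT. The groups follow the titles, and in Tia1+/- and P301S Tia1+/- the genotype entry of the labels gives the other group's genotype, so which of these groups carried the transgene rests on the titles alone. The names Tia1+/- and P301S Tia1+/- stand below for the libraries titled so.

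The olfactory bulb is the first relay of smell in the brain. Axons of olfactory sensory neurons enter it and form glomeruli with the dendrites of mitral and tufted cells, which are glutamatergic and carry the signal on to the olfactory cortex. Periglomerular and granule cells are local GABAergic interneurons, some of which also make dopamine, and new ones reach the bulb throughout life as migrating neuroblasts.

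Total counts lay between 11978962 and 19146484 per library. Tia1 itself was at 61.4 to 79.8 CPM (counts scaled to 1000000 per library after TMM) in Tia1+/- libraries against 75.4 to 93.8 in WT, and at 72.6 to 77.8 in P301S Tia1+/- libraries against 70.8 to 77.9 in PS19, so these overlapping levels do not check the Tia1 labels. Xist, expressed in female cells, was at most 0.783 CPM in WT and PS19 and at least 217 CPM in both groups with Tia1+/-. By this gene alone the Tia1 genotype and sex cannot be told apart in these libraries. The methods describe male mice with exceptions to be named, and name none for these libraries. The paper instead reads the rise of Xist as an effect of Tia1 reduction. It reports higher Xist and lower Y-linked transcripts by PCR in Tia1+/- males from another set of mice. The human transgene was not counted apart from mouse genes. Mouse Mapt, to which reads of human MAPT could in part have been assigned, was at 439 to 462 CPM in PS19 against 256 to 413 in WT, but at 336 to 357 CPM in P301S Tia1+/- against 344 to 502 in Tia1+/-. Prnp, whose promoter drives the transgene, was at 2018 to 2158 CPM in PS19 against 1334 to 1879 in WT. It was at 1404 to 1535 CPM in P301S Tia1+/- against 996 to 1922 in Tia1+/-. Both genes were thus higher with the transgene in the first pair of groups and not by the titles of the second. In the second pair the ranges overlapped and the medians ran the other way by the titles. For Mapt they were 353 CPM in P301S Tia1+/- and 455 in Tia1+/-, and for Prnp 1500 and 1664. This does not settle the labels of the second pair. A pair of libraries stood apart in genes of the cortex. The summed level of 8 genes of cortical projection neurons was 650 CPM in WT 1 and 451 CPM in Tia1+/- 3, against 824 to 1379 CPM in the other 10 libraries. Tia1+/- 3 also had a summed level of 2351 CPM for 8 striatal genes, against at most 393 CPM elsewhere. Fold changes are therefore given with and without these 2 libraries, an alternative chosen after the data were seen. In bulk tissue, fewer cells of a type and less RNA per cell cannot be told apart.

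The members lie on 9 chromosomes of GRCm38. Cdhr1 spans chr14:37077857-37098347 on the minus strand, Doc2g chr19:4003313-4007005 on the plus strand, and Tbx21 chr11:97098071-97115331 on the minus strand. Eomes spans chr9:118478212-118486132 on the plus strand and Nmb chr7:80902227-80905076 on the minus strand. Among the interneuron markers, Th spans chr7:142892752-142931128, Trh chr6:92242061-92244650 and Scgn chr13:23953456-23991214, all on the minus strand, and Shisa3 spans chr5:67607882-67623552 and Sp8 chr12:118846329-118852576 on the plus strand. In GENCODE M21, which is not stated to be the authors' annotation, Doc2g overlaps Gm49405 and Nmb overlaps Sec11a on the same strand. Eomes, Shisa3 and Scgn overlap Gm33460, Atp8a1 and Gm11339 on the opposite strand. The kit kept strand, but the strand setting of the counting is not given in the sources used here, so reads in these overlaps could not be assigned with certainty.

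Promoters are shown for 3 members as a frame for genes whose levels moved together. They come from RefSeq on GRCm38.p6 and hold 250 bases before and 50 bases after the transcription start, 5′ to 3′ on the gene's strand. Th (chr7:142899946-142900245, minus strand) is shown because it alone among the members held the cAMP response element TGACGTCA, Tbx21 (chr11:97115282-97115581, minus strand) because it held 3 GC boxes (GGGCGG) that share their end bases, and Cdhr1 (chr14:37098298-37098597, minus strand), the mitral cell marker with the most counts in WT 1, because it held none of the motifs searched. Capitals mark these motifs.
Th: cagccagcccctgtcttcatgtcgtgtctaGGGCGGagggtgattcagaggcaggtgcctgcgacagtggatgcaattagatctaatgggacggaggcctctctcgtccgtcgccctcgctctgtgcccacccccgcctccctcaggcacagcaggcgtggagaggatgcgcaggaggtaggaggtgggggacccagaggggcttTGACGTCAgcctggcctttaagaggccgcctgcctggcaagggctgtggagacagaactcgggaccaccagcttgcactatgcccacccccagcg
Tbx21: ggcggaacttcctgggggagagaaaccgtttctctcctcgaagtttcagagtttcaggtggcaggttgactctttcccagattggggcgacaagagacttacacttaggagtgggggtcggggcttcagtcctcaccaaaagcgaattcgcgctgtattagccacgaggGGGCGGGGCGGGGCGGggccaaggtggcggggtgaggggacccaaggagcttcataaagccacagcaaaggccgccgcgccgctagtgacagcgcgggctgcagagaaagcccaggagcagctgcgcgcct
Cdhr1: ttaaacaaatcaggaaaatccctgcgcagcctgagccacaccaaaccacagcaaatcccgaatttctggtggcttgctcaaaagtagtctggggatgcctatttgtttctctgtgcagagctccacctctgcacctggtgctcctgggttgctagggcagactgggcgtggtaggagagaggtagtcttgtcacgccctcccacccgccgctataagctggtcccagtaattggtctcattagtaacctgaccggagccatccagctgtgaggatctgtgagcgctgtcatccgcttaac

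The RefSeq start of Th lies inside the longer gene of GENCODE. The element in Th lies at bases -45 to -38 from the start, and the GC boxes of Tbx21 run from -81 to -66. RefSeq gave 12 promoters for the 10 genes, since Sp8 has 3. On both strands, the GC box was found in 7 of the 12, against 35.7% of all 32851 promoters. TGACGTCA was found in 1 of the 12 against 1.79% of all, and TATAAA in 1, of Sp8, against 13.6%. The T-box core TCACACC, which 3.98% of all promoters hold, was found in 0 of the 12. No letter pattern searched was thus shared by all members in this window. GC content had a median of 57.0% over the 12 promoters (range 43.0% to 70.0%), against 52.7% over all.

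Both classes of marker were high in the same libraries. The summed level of the 10 genes was 1087, 168 and 36.4 CPM in WT 1, 2 and 3, 13.5, 13.99 and 178 CPM in Tia1+/- 1, 2 and 3, 11.7, 22.0 and 11.1 CPM in PS19, and 718, 639 and 747 CPM in P301S Tia1+/-. The P301S Tia1+/- libraries were thus all high and close together, the PS19 libraries all low, and WT and Tia1+/- were each led by a single library, WT 1 and Tia1+/- 3. The mean sum of the mitral and tufted markers was 452 ± 35.5 CPM in P301S Tia1+/-, 274 ± 368 in WT, 42.0 ± 59.7 in Tia1+/- and 7.50 ± 3.15 in PS19 (SD, n = 3 each). For the interneuron markers it was 250 ± 22.0, 156 ± 205, 26.4 ± 35.0 and 7.47 ± 2.97 CPM in the same order (SD, n = 3 each). The SD exceeded the mean in WT and in Tia1+/- for both classes.

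**Figure D1:**
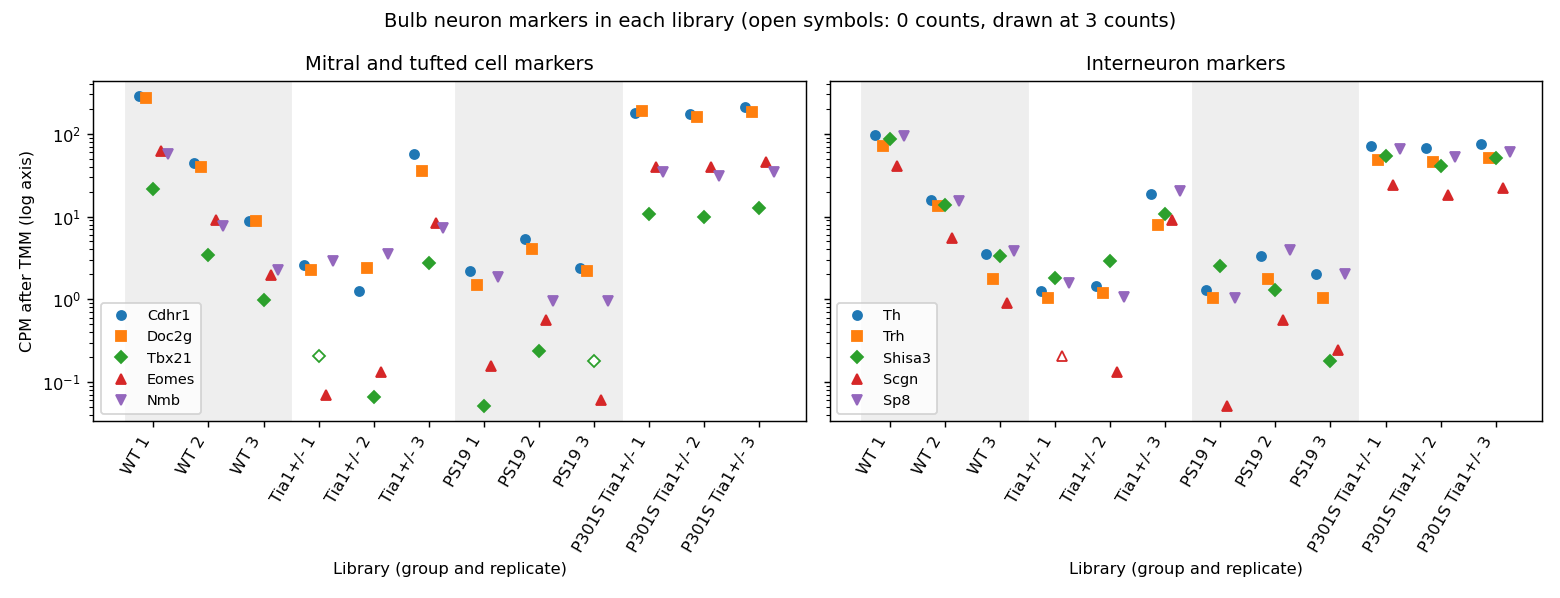
Level of each of the 10 markers in the 12 libraries, in CPM after TMM on a log axis, with mitral and tufted markers on the left and interneuron markers on the right. The 3 P301S Tia1+/- libraries and WT 1 sit at the top in both panels, and open symbols stand for the 3 values of 0 counts (Tbx21 in Tia1+/- 1 and PS19 3, Scgn in Tia1+/- 1), drawn at the level of 3 counts.

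Read as a measure of bulb RNA, the markers can be set against WT 1, the library with the most of it. Taking each member's level in WT 1 as 100%, the median over the 10 members was 15.7% in WT 2, with members from 13.4% (Nmb) to 18.9% (Trh). It was 3.46% in WT 3, with members from 2.24% (Scgn) to 4.59% (Tbx21). The 3 P301S Tia1+/- libraries had medians of 63.9%, 57.8% and 65.8%, and Tia1+/- 3 had 13.3%, with members from 11.2% (Trh) to 22.1% (Scgn). The medians of the other 5 libraries lay between 0.824% (PS19 3) and 1.58% (PS19 2), and their members differed widely. They ran from 0% (Tbx21) to 5.1% (Nmb) in Tia1+/- 1 and from 0.211% (Eomes) to 6.13% (Nmb) in Tia1+/- 2. In PS19 they ran from 0.128% (Scgn) to 3.29% (Nmb), 0.899% (Eomes) to 4.21% (Sp8) and 0% (Tbx21) to 2.2% (Sp8). A library of bulb alone is not analysed here, so these percentages compare libraries and give no share of bulb in the tissue.

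Among mitral and tufted markers, Cdhr1 encodes a cadherin-related membrane protein. It was at 283, 44.4 and 8.82 CPM in WT 1, 2 and 3, 2.62, 1.25 and 56.7 CPM in Tia1+/-, 2.18, 5.36 and 2.41 CPM in PS19, and 181, 173 and 211 CPM in P301S Tia1+/-. WT 1 was the highest library and Tia1+/- 2 the lowest, and every P301S Tia1+/- library was above every WT library but WT 1. In PS19 the mean was 3.32 ± 1.78 CPM, and in P301S Tia1+/- 188 ± 20.1 (SD, n = 3).

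Doc2g belongs to the DOC2 family, whose members with C2 domains take part in vesicle release. It was at 273, 39.3 and 8.90 CPM in WT, 2.28, 2.37 and 35.8 CPM in Tia1+/-, 1.51, 4.003 and 2.17 CPM in PS19, and 189, 160.4 and 182 CPM in P301S Tia1+/-. The same libraries led as for Cdhr1, and PS19 2 was the highest of its group for both genes. Per kilobase of exon Doc2g was the highest of the members in WT 1, at 89.9 CPM per kb.

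Tbx21 encodes T-bet, a T-box transcription factor known from T helper cells and, in the brain, from mitral and tufted cells. It was at 21.5, 3.47 and 0.989 CPM in WT, 10.9, 9.78 and 12.6 CPM in P301S Tia1+/-, and 2.77 CPM in Tia1+/- 3. In the other Tia1+/- libraries it had 0 and 1 counts and in PS19 1, 3 and 0 counts. A count of 0 allows up to 0.207 CPM in Tia1+/- 1 and 0.181 CPM in PS19 3, taking 3 counts as the limit, and such limits cover counting error only. Tbx21 had the fewest counts of all members, and the ratio of WT to PS19 by summed counts and library sizes was 104 (95% exact interval 40.3 to 385, counting error only).

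Eomes encodes Tbr2, the T-box factor that mitral and tufted cells share with cortical progenitors. It was at 62.4, 9.05 and 1.98 CPM in WT, 0.0690, 0.131 and 8.44 CPM in Tia1+/-, 0.156, 0.560 and 0.0602 CPM in PS19, and 39.9, 40.0 and 45.1 CPM in P301S Tia1+/-. Its level in the lower libraries rested on few counts, from 1 in Tia1+/- 1 and PS19 3 to 7 in PS19 2. Eomes and Tbx21, the transcription factors of this class, had at most 7 counts in each of Tia1+/- 1, Tia1+/- 2 and the PS19 libraries, as did Scgn.

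Nmb encodes neuromedin B, a peptide of the bombesin family. It was at 56.8, 7.61 and 2.28 CPM in WT, 2.90, 3.48 and 7.22 CPM in Tia1+/-, 1.87, 0.961 and 0.964 CPM in PS19, and 34.8, 31.1 and 34.6 CPM in P301S Tia1+/-. Unlike the other mitral markers, it was higher in Tia1+/- 1 and 2 than in WT 3. Its Tia1+/- libraries lay above every PS19 library, which held for 1 of the 10 members, against 5.9% of all genes tested. Per kilobase it was the highest member in both of those Tia1+/- libraries, at 3.66 and 4.39 CPM per kb, and in PS19 1 and 3, at 2.36 and 1.22 CPM per kb.

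Among interneuron markers, Th encodes tyrosine hydroxylase, the rate-limiting enzyme of dopamine synthesis, made in the bulb by periglomerular cells. It was at 97.7, 15.8 and 3.57 CPM in WT, 1.24, 1.45 and 18.7 CPM in Tia1+/-, 1.30, 3.36 and 2.05 CPM in PS19, and 70.3, 66.8 and 76.3 CPM in P301S Tia1+/-. WT 1 was again the highest and Tia1+/- 1 the lowest library. Across the 12 libraries Th was the member closest to the mean profile of its class, as measured below.

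Trh encodes the precursor of thyrotropin-releasing hormone, which is known best from the hypothalamus and is also made in the bulb. It was at 71.5, 13.5 and 1.75 CPM in WT, 1.04, 1.18 and 7.99 CPM in Tia1+/-, 1.04, 1.76 and 1.02 CPM in PS19, and 48.8, 45.5 and 50.7 CPM in P301S Tia1+/-. PS19 2 and WT 3 were nearly level, with 1.76 and 1.75 CPM, so WT and PS19 overlapped. Of 6 defining genes of the hypothalamus, Hcrt reached at most 0.260 CPM in any library, Pmch 0.400, Avp 0.387 and Oxt 0.304. Agrp reached 1.12 CPM, in WT 1, and Pomc ran from 0.560 CPM in PS19 2 to 3.39 CPM in P301S Tia1+/- 3. Pomc exceeded Trh in Tia1+/- 1, Tia1+/- 2 and PS19 1. It was also listed as a pituitary gene, and the pituitary gene Prl was at 5.66, 16.2 and 0.312 CPM in these libraries. The part of hypothalamic RNA in the level of Trh was not tested.

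Shisa3 encodes a membrane protein that holds back Wnt and FGF receptors. It was at 87.7, 13.7 and 3.35 CPM in WT, 1.79, 2.89 and 10.8 CPM in Tia1+/-, 2.55, 1.28 and 0.181 CPM in PS19, and 54.3, 41.3 and 51.5 CPM in P301S Tia1+/-. PS19 3 had 3 counts against 49 in PS19 1. Within PS19, Shisa3 and Nmb were highest in PS19 1 and the other 8 members in PS19 2.

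Scgn encodes secretagogin, a calcium-binding protein of the EF-hand family found in bulb interneurons. It was at 40.7, 5.50 and 0.913 CPM in WT, 0.131 and 9.02 CPM in Tia1+/- 2 and 3, 0.0520, 0.560 and 0.241 CPM in PS19, and 24.2, 18.0 and 22.4 CPM in P301S Tia1+/-. Tia1+/- 1 had 0 counts, which allows up to 0.207 CPM. In Tia1+/- 1, Tia1+/- 2 and PS19 it had at most 7 counts per library.

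Sp8 encodes a zinc finger transcription factor needed for bulb interneurons. It was at 93.1, 15.5 and 3.80 CPM in WT, 1.59, 1.05 and 20.2 CPM in Tia1+/-, 1.04, 3.92 and 2.05 CPM in PS19, and 65.9, 52.8 and 60.5 CPM in P301S Tia1+/-. PS19 2 was just above WT 3, so these groups overlapped for Sp8 as for Trh. In Tia1+/- 3, Sp8 exceeded its level in WT 2, as did Cdhr1, Th and Scgn.

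The proportion of the classes was close in WT, in P301S Tia1+/- and in Tia1+/- 3. Interneuron markers made up 36.0%, 38.2% and 36.8% of the members' counts in WT (95% Wilson intervals 35.2% to 36.8%, 36.0% to 40.3% and 32.6% to 41.2%) and 36.7%, 35.1% and 35.0% in P301S Tia1+/- (35.8% to 37.6%, 34.2% to 36.0% and 34.2% to 35.9%). In Tia1+/- 3 the share was 37.6% (35.8% to 39.4%), while in Tia1+/- 1 and 2 it was 41.8% and 47.9% (35.2% to 48.8% and 41.3% to 54.6%). In PS19 it was 50.9%, 49.5% and 49.7% (44.4% to 57.3%, 43.6% to 55.3% and 42.6% to 56.9%). Every PS19 library had a larger interneuron share than every WT library, and the PS19 shares rested on 226, 275 and 185 counts. The intervals cover counting error only, not the spread between mice, and the difference in share was not tested.

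**Figure D2:**
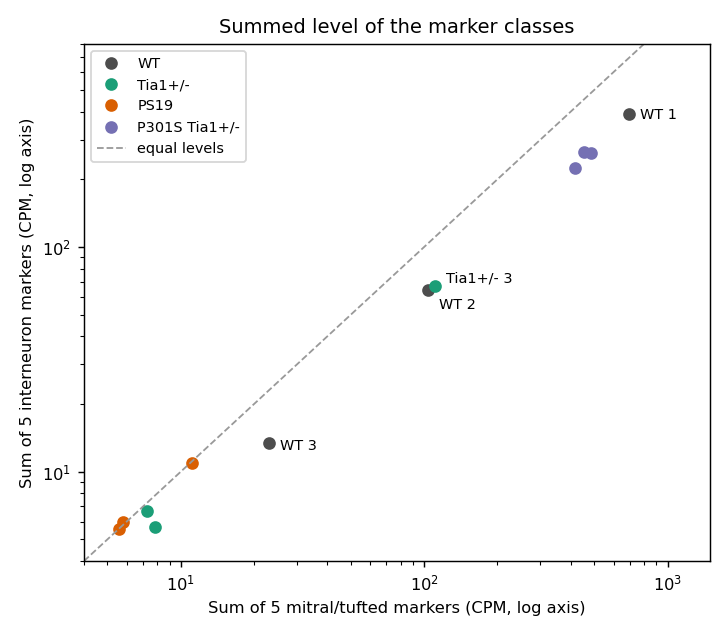
Summed level of the 5 interneuron markers against that of the 5 mitral and tufted markers, 1 point per library, both in CPM on log axes, with a dashed line of equal levels. WT, Tia1+/- 3 and P301S Tia1+/- libraries lie below the line with interneuron shares from 35.0% to 38.2%, and the PS19 libraries lie near it, with 49.5% to 50.9%.

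Single members took different shares of the marker counts. Cdhr1 took from 8.92% (Tia1+/- 2) to 31.9% (Tia1+/- 3), Doc2g from 12.8% (PS19 1) to 26.3% (P301S Tia1+/- 1) and Nmb from 4.06% (Tia1+/- 3) to 24.9% (Tia1+/- 2). Shisa3 took from 1.62% (PS19 3) to 21.7% (PS19 1). Trh stayed between 4.498% (Tia1+/- 3) and 9.19% (PS19 3), and Th between 8.99% (WT 1) and 18.4% (PS19 3). Sp8 took from 7.51% (Tia1+/- 2) to 18.4% (PS19 3). Eomes took from 0.510% (Tia1+/- 1) to 6.26% (P301S Tia1+/- 2), and Tbx21 and Scgn reached 2.72% (WT 3) and 5.08% (Tia1+/- 3). The shares in Tia1+/- 1, Tia1+/- 2 and PS19 rested on 185 to 275 marker counts per library.

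**Figure D3:**
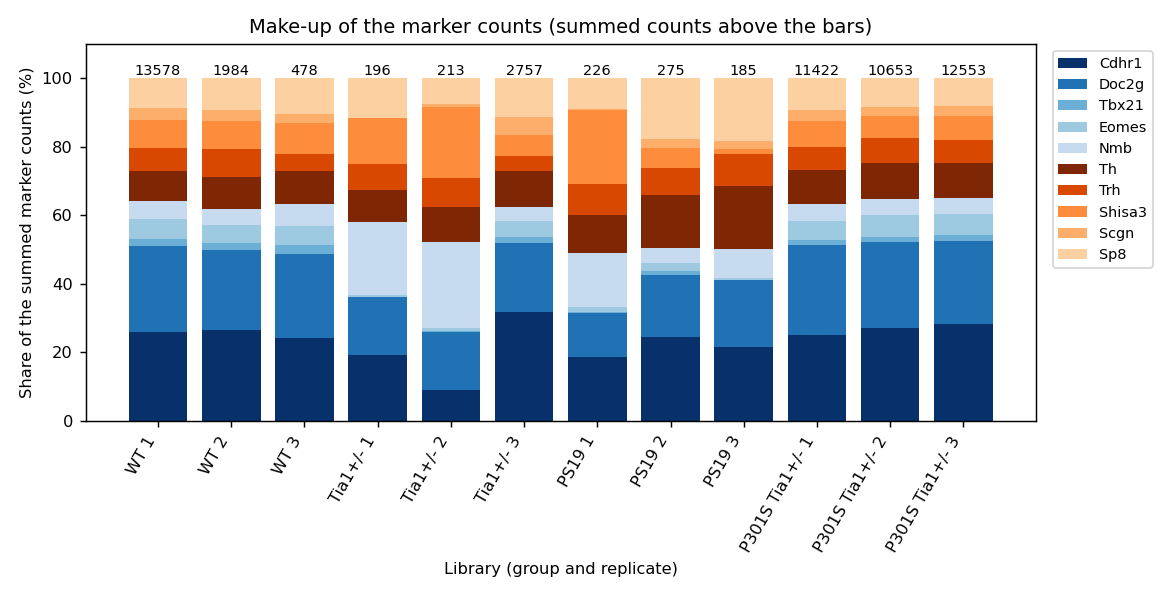
Share of each marker in the summed counts of the 10 markers, in percent, for each library, with the summed counts above the bars (blue, mitral and tufted; orange, interneuron). WT and P301S Tia1+/- libraries look alike, while Nmb and Shisa3 take up to 24.9% and 21.7% in libraries with 213 and 226 marker counts.

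Tia1+/- 3 and WT 2 had close summed levels, 178 and 168 CPM, and differed in make-up. Tia1+/- 3 had more Cdhr1 (56.7 against 44.4 CPM), Scgn (9.02 against 5.50) and Sp8 (20.2 against 15.5) and less Trh (7.99 against 13.5) and Shisa3 (10.8 against 13.7). Eomes and Nmb were closer, at 8.44 against 9.05 and 7.22 against 7.61 CPM. Other genes separated these libraries further. Omp, the marker of mature olfactory sensory neurons, was at 2.84 CPM in Tia1+/- 3 and 18.9 in WT 2. The 8 striatal genes summed to 2351 CPM in Tia1+/- 3 and to at most 393 CPM in every other library, WT 2 included, and the 8 cortical projection neuron genes to 451 CPM in Tia1+/- 3 and 1142 CPM in WT 2. Omp was chosen after its values were seen, and whether tissue of other regions took part in the levels of the members was not tested.

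Per kilobase of exon, Doc2g led in WT 1 with 89.9 CPM per kb, followed by Nmb (71.7), Cdhr1 (65.2), Trh (51.7) and Th (41.3). Scgn (25.2), Sp8 (20.4), Shisa3 (18.5), Eomes (15.0) and Tbx21 (8.65) followed. P301S Tia1+/- 1 gave the same order, from Doc2g at 62.2 to Tbx21 at 4.37 CPM per kb, while in P301S Tia1+/- 2 and 3 Cdhr1 came before Nmb and Eomes before Shisa3. WT 2 and WT 3 also had other orders, with Doc2g first and Tbx21 last in both. On this scale the peptide genes Nmb and Trh stood above the transcription factors Sp8, Eomes and Tbx21 in WT 1 and in the 3 P301S Tia1+/- libraries. In Tia1+/- 3 Cdhr1 came before Doc2g (13.1 and 11.8 CPM per kb) and Th before Trh (7.90 and 5.77 CPM per kb).

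PS19 and WT were compared for the effect of the tau transgene. All 5 mitral and tufted markers and 3 interneuron markers (Th, Shisa3 and Scgn) were lower in every PS19 library than in every WT library, 8 of 10 members, against 11.0% of all genes tested. This share is given for reference only, since the members were chosen on such differences. The fitted log2 fold change, PS19 minus WT, was -5.12 for Cdhr1 (standard error 1.502), -5.43 for Doc2g (1.395), -6.67 for Eomes (1.75) and -4.09 for Nmb (0.99). Interneuron markers ranged from -4.06 for Sp8 (1.27) to -5.90 for Scgn (1.81). The medians were -5.43 for mitral and tufted markers and -4.53 for interneuron markers, against -0.01 over all genes tested. Without WT 1 and Tia1+/- 3 they were -3.29 and -2.58, so WT 1 carried much of the size.

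P301S Tia1+/- and PS19 were compared for the effect of Tia1 reduction in tau mice, with the first group taken by its titles. All 10 markers were higher in every P301S Tia1+/- library than in every PS19 library, against 20.2% of all genes tested. The fitted log2 fold change was 5.87 for Cdhr1 (standard error 1.54), 6.16 for Doc2g (1.43), 6.91 for Tbx21 (1.67), 7.44 for Eomes (1.75) and 4.68 for Nmb (0.999). Among interneuron markers it ran from 4.73 for Sp8 (1.29) to 6.36 for Scgn (1.81). The class medians were 6.16 and 5.15, against 0.01 over all genes tested, and without the 2 libraries that stood apart they were 6.17 and 5.11. The fit has a mean per group and those libraries are in neither group, so leaving them out could hardly change these values. The standard error was smaller without them, 0.49 in place of 1.54 for Cdhr1.

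Tia1+/- and WT were compared for Tia1 reduction without the transgene. Of the 10 members, 0 were higher and 0 lower in all libraries of a group than in all of the other, against 9.6% and 10.4% of all genes tested. Tia1+/- 3 was above WT 3 for every member. The class medians of the log2 fold change were -2.98 and -2.44. They moved to -0.80 and -0.40 without WT 1, to -5.86 and -4.82 without Tia1+/- 3, and to -3.77 and -2.82 without both, so a single library of either group set their size. Without both, Nmb stood at -0.61 (standard error 0.42) and Eomes at -5.64 (0.93).

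P301S Tia1+/- and Tia1+/- were compared for the transgene in mice with reduced Tia1, and by the genotype entries the direction of every value here would be the opposite. All 10 markers were higher in every P301S Tia1+/- library, against 14.9% of all genes tested. The fitted log2 fold change was 3.22 for Cdhr1 (standard error 1.30), 3.84 for Eomes (1.29), 2.88 for Nmb (0.88), 3.31 for Th (1.13) and 2.80 for Scgn (1.34). Class medians were 3.52 and 3.24, and 6.60 and 5.48 without WT 1 and Tia1+/- 3. The titles give a running number only and name no pairs, and residuals of same-numbered libraries of these groups correlated weakly (0.123, 0.134 and 0.24). With the number as a block in a fit of these 6 libraries the class medians were 4.57 and 3.78. The medians in PS19 against WT had the opposite sign. The interaction, the difference between both contrasts taken gene by gene, had class medians of 9.14 and 7.90 on the log2 scale (9.65 and 7.86 without the 2 libraries), and it is untested for the members. In the order of group means, P301S Tia1+/- came before WT, Tia1+/- and PS19 for every member, but 0 of 10 separated P301S Tia1+/- from WT in either direction (12.4% and 10.8% of all genes tested), since WT 1 exceeded and WT 2 and 3 fell short of every P301S Tia1+/- library. These comparisons share libraries and are not independent.

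**Figure D4:**
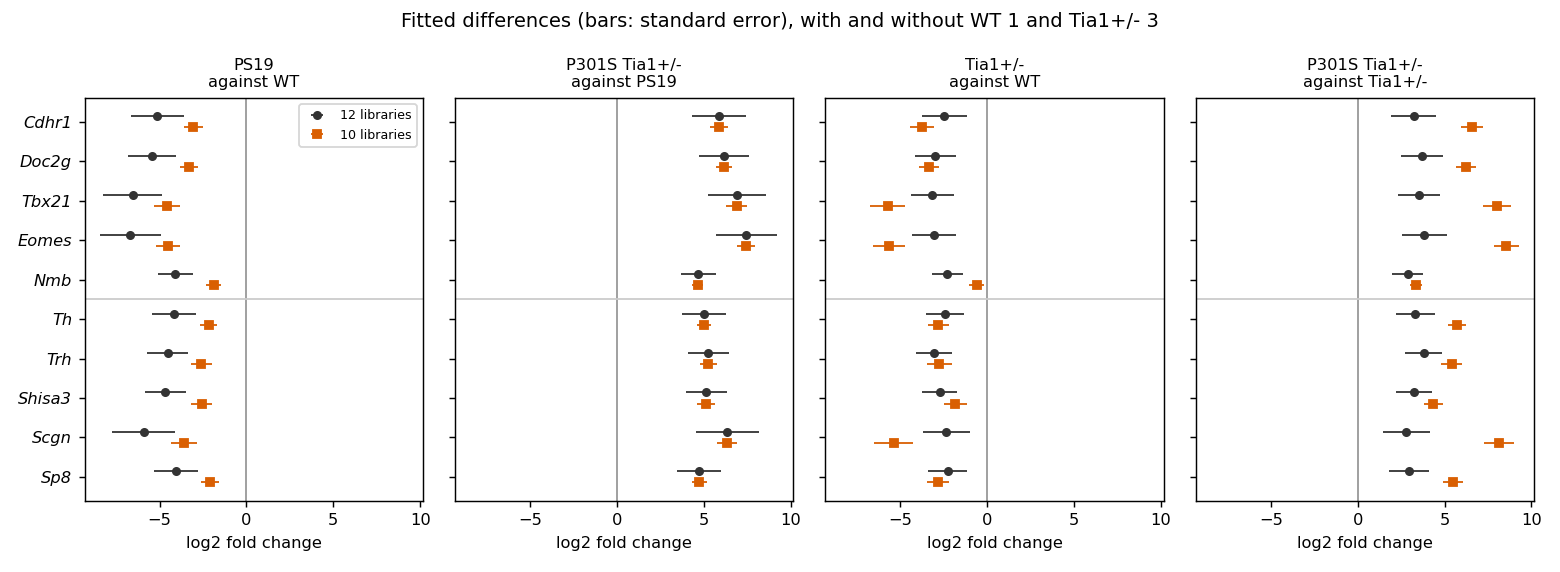
Fitted log2 fold change of each marker in 4 comparisons, with bars of 1 standard error, from all 12 libraries (dark circles) and from 10 libraries without WT 1 and Tia1+/- 3 (orange squares). Values in P301S Tia1+/- against PS19, groups that hold neither of these libraries, could hardly differ, with medians of 6.16 and 6.17 for mitral and tufted markers. Those in P301S Tia1+/- against Tia1+/- go from 3.52 to 6.60.

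Other genes of the bulb, which the rule did not use, were tested within the fit of all genes. A list of 45 was taken (other mitral and tufted genes, other interneuron genes, genes of olfactory sensory axons and of ensheathing glia), of which 42 passed the filter. The list was written with the behaviour of bulb genes in these data known and is not independent of the members. In P301S Tia1+/- against PS19, 1 of the 42 was called by edgeR's quasi-likelihood test with Benjamini-Hochberg adjustment, against 0.24% of all genes. It was S100a5, a calcium-binding protein of olfactory sensory neurons, at 0.312, 0.560 and 0.0602 CPM in PS19 and 64.8, 108 and 104 CPM in P301S Tia1+/- (log2 fold change 8.26, edgeR adjusted p = 0.0435). The call was lost with the replicate block, with the filter of 10 counts in every library and without any 1 library of either group. It was also lost without Tia1+/- 1 and without Tia1+/- 2, which are in neither group. Each of these settings left 0 of the list called by edgeR. DESeq2, run without the filter on low counts, held 44 of the list and called 19 (5.28% of all genes). With only the 6 libraries compared edgeR called 30, of which 28 were higher, against 3025 of 15075 genes. The median log2 fold change of the list was 1.54, against 0.01 over all genes tested, and 26 genes of the list had an unadjusted p under 0.05 by edgeR, against 19.3% of all genes.

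Without WT 1 and Tia1+/- 3 the count in P301S Tia1+/- against PS19 was 28 higher and 2 lower of 42, against 10.8% and 12.1% of all genes. These 2 libraries are in neither group, had the highest marker sums of their own groups and were left out after the data were seen. All groups share 1 estimate of the spread, so the counts and p-values of this fit depend on that choice and are a description. Of 17 other interneuron genes, 15 rose and 1 fell. Dlx1, a homeobox factor of GABAergic neurons, stood at 6.81, 8.57 and 8.25 CPM in PS19 and 50.9, 39.8 and 45.3 in P301S Tia1+/- (log2 fold change 2.51, edgeR adjusted p = 4.26e-07 without the 2 libraries, 0.103 with all 12). Gad1, which makes GABA, differed by 1.58 (edgeR adjusted p = 1.38e-06 without them, 0.121 with all 12). Of 7 other mitral and tufted genes, Barhl2 and Reln rose and Tbr1 fell. Tbr1, Slc17a7 and Cck are also expressed by cortical neurons, and the list summed to 1227 to 1397 CPM in 11 libraries and 616 in Tia1+/- 3. Of 5 genes of ensheathing glia, 4 rose, led by Fabp7 (log2 fold change 2.86, edgeR adjusted p = 6.08e-05 without the 2 libraries, 0.137 with all 12). Of 13 genes of olfactory sensory axons, 7 rose and 0 fell.

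In the other comparisons, 0 of the 42 were called by edgeR with all 12 libraries. At an unadjusted p under 0.05 there were 18 in PS19 against WT, 17 in Tia1+/- against WT, 20 in P301S Tia1+/- against Tia1+/- and 24 in the interaction, against 16.3%, 19.1%, 15.6% and 22.9% of all genes. DESeq2 called 9, 6, 9 and 21, against 2.77%, 6.59%, 2.53% and 7.63% of all genes. By edgeR with adjustment the shares of all genes called were 0.0%, 0.712%, 0.0% and 0.00648%. Without the 2 libraries edgeR called 3 lower in PS19 against WT (0.296% of all genes) and 5 lower in Tia1+/- against WT (1.16%). It called 28 higher and 2 lower in P301S Tia1+/- against Tia1+/- (11.5% and 11.9%), and 27 higher and 3 lower in the interaction (6.93% and 6.6%). The 3 genes in PS19 against WT were S100a5, Omp and Stoml3, all of olfactory sensory neurons. In the fit of only P301S Tia1+/- and Tia1+/- with the replicate block, 7 of the list were called, against 145 of 15038 genes.

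Omp did not keep a fixed ratio to the bulb neuron markers. Omp was at 162, 18.9 and 4.03 CPM in WT and 72.6, 135 and 133 CPM in P301S Tia1+/-, and at 0.828, 0.854 and 2.84 CPM in Tia1+/- and 0.260, 0.560 and 0.542 CPM in PS19. As a percentage of the members' summed level it was 14.9%, 11.3% and 11.1% in WT and 10.1%, 21.2% and 17.8% in P301S Tia1+/-. It was 6.12%, 6.10% and 1.60% in Tia1+/- and 2.21%, 2.55% and 4.87% in PS19, where in all but Tia1+/- 3 the members themselves were low. Calb2, which encodes calretinin and marks granule and periglomerular cells, kept a steadier ratio. It made up 35.4%, 36.3% and 46.0% in WT, 43.1% in Tia1+/- 3 and 36.7%, 36.7% and 35.6% in P301S Tia1+/-, and from 60.7% to 118% in the other 5 libraries. Calb2 is also the non-member gene nearest the interneuron markers in profile, as given below, so its ratio to the members is not separate evidence. It is expressed by interneurons of the cortex too, and their part in its level was not tested. Tia1+/- 3 thus had the bulb neuron markers and Calb2 with little Omp. S100a5 and Stoml3 were likewise below every WT library there, at 2.58 and 0.322 CPM. Other genes on the list of sensory axons went the other way. Gnal (493 CPM) and Ano2 (21.2 CPM) were at their highest in Tia1+/- 3. The list of 13 summed to 597 CPM there, the most of any library, with Gnal the largest part.

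**Figure D5:**
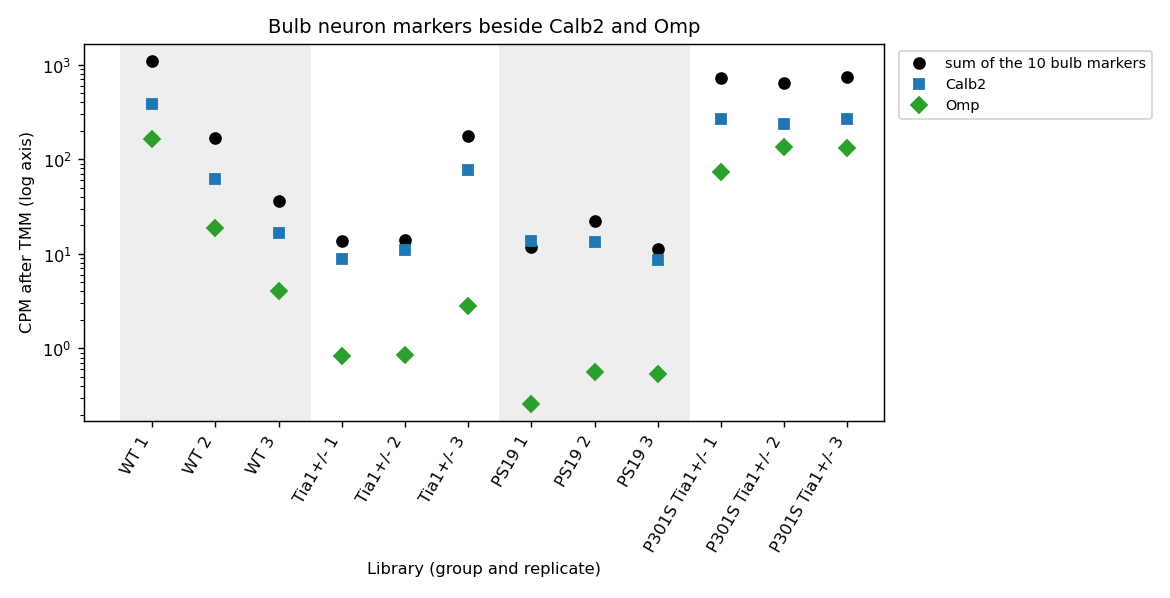
Summed level of the 10 bulb neuron markers in each library beside 2 single genes, in CPM after TMM on a log axis. Calb2 (interneurons) and Omp (1 of the 13 genes listed for olfactory sensory axons) are high where the markers are high, except that Omp is at 2.84 CPM in Tia1+/- 3.

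Genes that work with Th and with the peptide markers were followed next. Slc6a3, the dopamine transporter, was at 7.68, 1.27 and 0.456 CPM in WT, 1.997 in Tia1+/- 3, at most 0.120 in PS19 and 7.42, 4.98 and 5.77 in P301S Tia1+/-. As a percentage of Th it lay between 7.46% and 12.8% in WT, Tia1+/- 3 and P301S Tia1+/-. Among defining genes of dopamine, noradrenaline and serotonin neurons of the midbrain and brainstem, Pitx3 reached at most 0.138 CPM, Dbh 0.503 and Slc6a4 0.480. Tph2, the enzyme of serotonin synthesis in neurons, ran from 0.540 CPM in P301S Tia1+/- 2 to 3.98 CPM in WT 2, and exceeded Th in Tia1+/- 1, Tia1+/- 2 and PS19 1. The part of these neurons in the level of Th was not tested. The lists that follow can be read against 19.3% of all genes at an unadjusted p under 0.05 by edgeR, 5.28% called by DESeq2, and 10.8% higher and 12.1% lower without the 2 libraries. Of 11 dopamine genes, 0 were called by edgeR with all 12 libraries in P301S Tia1+/- against PS19 (4 at an unadjusted p under 0.05, DESeq2 1), and 3 rose without the 2 libraries (Slc6a3, Ddc and Gch1). Of 10 genes that process or receive the peptides, 0 were called (2 at an unadjusted p under 0.05, DESeq2 0), and without the 2 libraries 2 rose and 3 fell. Their summed level lay between 2316 and 3443 CPM, with 2316 CPM in WT 1, where Trh and Nmb were highest. Of 7 neuroblast genes 0 were called (4 at an unadjusted p under 0.05, DESeq2 2), and 5 rose without the 2 libraries, led by Dcx, at 24.9, 30.9 and 19.6 CPM in PS19 and 93.1, 74.0 and 96.1 CPM in P301S Tia1+/-.

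Cortical projection neuron genes are given beside the markers, since the study describes the tissue as cortex (the labels say only brain). Their 8 genes summed to 1112, 1177 and 1216 CPM in PS19 and 904, 995 and 824 CPM in P301S Tia1+/-, and to 650, 1142 and 1179 CPM in WT and 1379, 1274 and 451 CPM in Tia1+/-. In P301S Tia1+/- against PS19, 0 of 8 were called by edgeR with all 12 libraries (0 at an unadjusted p under 0.05, DESeq2 0), and without the 2 libraries 6 fell, among them Fezf2 and Neurod6. The part of these genes in the bulb marker levels was not tested.

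Genes with the profile most like each class were found over all tested genes. The measure was the root mean square difference between a gene's log2(CPM + 0.5) and the mean of the class over the 12 libraries, each centred on its own mean. For mitral and tufted markers the nearest were Ms4a15 (0.25), Frmd7 (0.38), Adamts19 (0.40), Calb2 (0.41) and Trdn (0.46). For interneuron markers they were Calb2 (0.25), Ms4a15 (0.29), Trdn (0.30), Frmd7 (0.31) and AI848285 (0.36). The members themselves lay between 0.35 (Eomes) and 0.79 (Nmb) in the mitral class and between 0.19 (Th) and 0.56 (Shisa3) in the interneuron class. Nmb and Shisa3 therefore followed their class least closely. Ms4a15 was at 41.0, 5.84 and 1.14 CPM in WT, 31.2, 25.6 and 31.3 CPM in P301S Tia1+/-, 0.138, 0.0657 and 5.35 CPM in Tia1+/- and 0.0520, 0.961 and 0.181 CPM in PS19.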

How the data were processed

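RNA from the cortex of 12 mice was sequenced from stranded total RNA libraries. According to the study's methods and the submitters' processing notes, the authors aligned reads to mm10 with Bowtie and TopHat (TopHat2 2.0.6 in the notes) and deposited raw counts per gene symbol from featureCounts, whole numbers with no normalization. The annotation and strand setting are not given in the sources used here. Libraries were grouped by their titles. For both groups with Tia1+/-, titles and genotype entries are swapped against each other, and the titles, which match the names of the count columns, were used.

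Counts of all 12 libraries were fitted together in edgeR 4.0.16 (R 4.3.3) with a mean per group, TMM scaling, filterByExpr (15440 of 24062 symbols kept) and the quasi-likelihood F test, with Benjamini-Hochberg adjustment at 0.05. DESeq2 1.42.0 was an alternative. Wilson and exact intervals are at 95% and cover counting error only. With 3 libraries per group, p-values measure the spread between these mice. Standard errors of fold changes are approximate, taken as the absolute log2 fold change divided by the square root of the F statistic. CPM are counts per 1000000 of the TMM-scaled library. Per-kilobase levels used merged GENCODE M21 exons, to which 22750 symbols matched.

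Replicate numbers were checked for pairing by correlating residuals of same-numbered libraries. Of 18 pairs, 7 exceeded 0.1 (median -0.06, range -0.54 to 0.35). For Tia1+/- with P301S Tia1+/- all 3 exceeded 0.1, so a paired fit was added there.

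The members and lists were chosen with earlier results of these data known. Named genes were the 10 members, up to 3 genes per list and comparison with the smallest adjusted p under 0.05 (here also without the 2 libraries that stood apart), and the 5 genes nearest each class in profile. Other named genes, among them Omp, Slc6a3 and the defining genes of other regions, were chosen after their values were seen. Some genes are not reported here.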

Additional observations from a re-analysis of the deposited data

Results flagged for a closer look

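For 8 of the 10 members every PS19 library was below every WT library, while every P301S Tia1+/- library was above every Tia1+/- library. Of all genes tested, 11.0% met the first condition and 14.9% the second, and the share meeting both was not counted. For these 8 members the contrast of mice with and without the tau transgene ran in opposite directions in the 2 Tia1 genotypes. The difference between the contrasts on the log2 scale was 8.34 for Cdhr1, 9.14 for Doc2g, 10.07 for Tbx21, 10.51 for Eomes and 6.97 for Nmb among mitral and tufted markers, and 7.48 for Th, 7.90 for Shisa3 and 8.71 for Scgn among interneuron markers. Leaving out each library in turn, they were lowest without WT 1 and highest without Tia1+/- 3 for all 8, from 6.24 to 11.73 for Cdhr1, from 8.33 to 15.25 for Eomes and from 6.38 to 14.06 for Scgn. These differences were not tested, since the members were chosen on their levels in these libraries. For Trh and Sp8 the values of PS19 2 and WT 3 overlapped. With the genotype entries in place of the titles of the groups with Tia1+/-, both contrasts would run the same way. By Xist, which the paper reads as raised by Tia1 reduction itself, the sex of the mice goes with the Tia1 genotype. The level of Calb2 moves with the members, as does that of Omp except in Tia1+/- 3. The part of sex, Calb2 and Omp in the opposite directions was not tested.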

How the results depend on the processing

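In all alternatives run the class medians of the members kept their sign. DESeq2 size factors in edgeR changed no count of calls by over 1.5 times. Where the counts moved, their cause was not tested. Comparisons are given in the order PS19 against WT, P301S Tia1+/- against PS19, Tia1+/- against WT, P301S Tia1+/- against Tia1+/- and the interaction. Over all genes edgeR called 0, 37, 110, 0 and 1, and DESeq2 called 431, 821, 972, 403 and 1216. Of the 42 other bulb genes edgeR called 0, 1, 0, 0 and 0. DESeq2, run without the filter on low counts, held 44 of the list and called 9, 19, 6, 9 and 21. With no filter Tia1+/- against WT gave 73 genes and the interaction 5, and the bulb list gave 2 in P301S Tia1+/- against PS19 and 3 in the interaction. With at least 10 counts in every library P301S Tia1+/- against PS19 gave 15 genes and 0 of the bulb list, and the interaction 0. Only 3 members of each class passed that filter. With only the 6 libraries compared, P301S Tia1+/- against PS19 gave 3025 genes and 30 of the bulb list, Tia1+/- against WT 6 genes, and P301S Tia1+/- against Tia1+/- 334 genes and 10 of the bulb list, while the interaction needs all groups and has no such fit. Leaving out each library in turn gave 0 to 1, 6 to 1606, 8 to 497, 0 to 956 and 0 to 1035 genes, and 0, 0 to 23, 0 to 5, 0 to 18 and 0 to 21 of the bulb list. The highest counts came without WT 1 in both comparisons of P301S Tia1+/- and without WT 3 in Tia1+/- against WT and the interaction. Without both WT 1 and Tia1+/- 3, a setting chosen after seeing the data, the counts were 74, 3569, 267, 3646 and 2106 genes and 3, 30, 5, 30 and 30 of the bulb list.

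Leaving out each library in turn, the median log2 fold change of mitral and tufted markers ran from -5.97 to -3.27, 5.84 to 6.57, -5.86 to -0.80, 2.93 to 6.60 and 6.97 to 11.73, and that of interneuron markers from -5.08 to -2.59, 4.97 to 5.39, -4.82 to -0.40, 2.79 to 5.49 and 5.83 to 9.89. Without both libraries named above the interneuron median in PS19 against WT was -2.58. The replicate number as a block in all 12 libraries gave 7 genes and 0 of the bulb list in P301S Tia1+/- against PS19, 9 genes in Tia1+/- against WT and 0 in the interaction. The fit of only P301S Tia1+/- and Tia1+/- with the replicate block, also added after seeing the data, gave 145 genes and 7 of the bulb list. The replicate block changed no other count by over 1.5 times. Depth limits Tbx21, Eomes and Scgn, which had at most 7 counts in each PS19 library.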
